A study of Drosophila melanogaster with 4 samples.

Results

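The insulin pathway and starvation genes described here are ImpL2, InR, Thor, foxo, chico, Pi3K21B, Lnk and Ilp4. They were taken by symbol from the gene count table, which held all 8 among its 16727 genes. RNA-seq of total RNA was done on whole Drosophila melanogaster embryos 16 to 18 h old, collected at 25 °C, in 4 libraries. All of them came from embryos homozygous for a deletion of the histone gene complex (deltaHisC), picked by GFP, and carried a transgene array with 12 copies (12x) of the histone genes. In the 2 libraries of H3.2-WT (the wild type below) the histone H3.2 of that array was wild type, and in the 2 libraries of H3.2-K4R (K4R below) its lysine 4 was replaced by arginine. The variant histone H3.3, encoded elsewhere in the genome, is not altered by this design, so lysine 4 was not removed from all histone H3. Point mutations and array copies cannot be told from gene counts, so the table gives no check of the genotype. Whether replicates were separate collections of embryos is not stated in the labels, and the p-values therefore rest on a spread between libraries that could be technical.

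Insulin-like peptides bind the insulin receptor InR, and adaptor proteins, phosphoinositide 3-kinase and the kinase Akt then carry the signal inward. Akt keeps the transcription factor FOXO out of the nucleus. When food is short and the signal falls, nuclear FOXO raises the transcription of target genes, among them Thor and InR in flies. Embryos do not feed and live on yolk, so in this tissue the pathway is known mainly for growth and for the setting of metabolism before hatching.

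Depth was 33882742 to 45509930 counted read pairs per library, and the smallest count of any of the 8 genes was 330. All 8 passed the filter on low counts. K4R lay above the wild type in 7 of 8 genes, with a median log2 fold change of 0.35 over the 8, beside -0.02 over the 11562 genes tested. The median of the 8 was 0.16 without K4R replicate 2 and 0.51 without K4R replicate 1. Groups that did not overlap, with both K4R libraries higher, were found in 7 of 8 genes, and in 23.6% of all tested genes. The opposite order was found in 0 of 8, and in 27.5% of all tested genes. Of the 7, foxo, Ilp4 and Pi3K21B were parted by only about 1.01-fold between the nearest libraries of the groups. By the edgeR quasi-likelihood test with Benjamini-Hochberg adjustment over all tested genes, 1 of 8 rose (ImpL2) and 0 fell. Of all tested genes, 0.415% rose and 0.173% fell. At an unadjusted p under 0.05, 3 of 8 stood higher and 0 stood lower, beside 7.68% and 9.2% of all tested genes. DESeq2 called ImpL2, InR and Thor higher (3 of 8, beside 3.58% of the genes it gave an adjusted p) and limma-voom ImpL2 and InR (2 of 8, beside 0.874%), each with 0 lower. With a trend on exon length removed (below), edgeR called ImpL2 and Thor (2 of 8, beside 0.752%). The 8 genes were chosen with earlier results of these data known, so their count is a description.

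**Figure D1:**
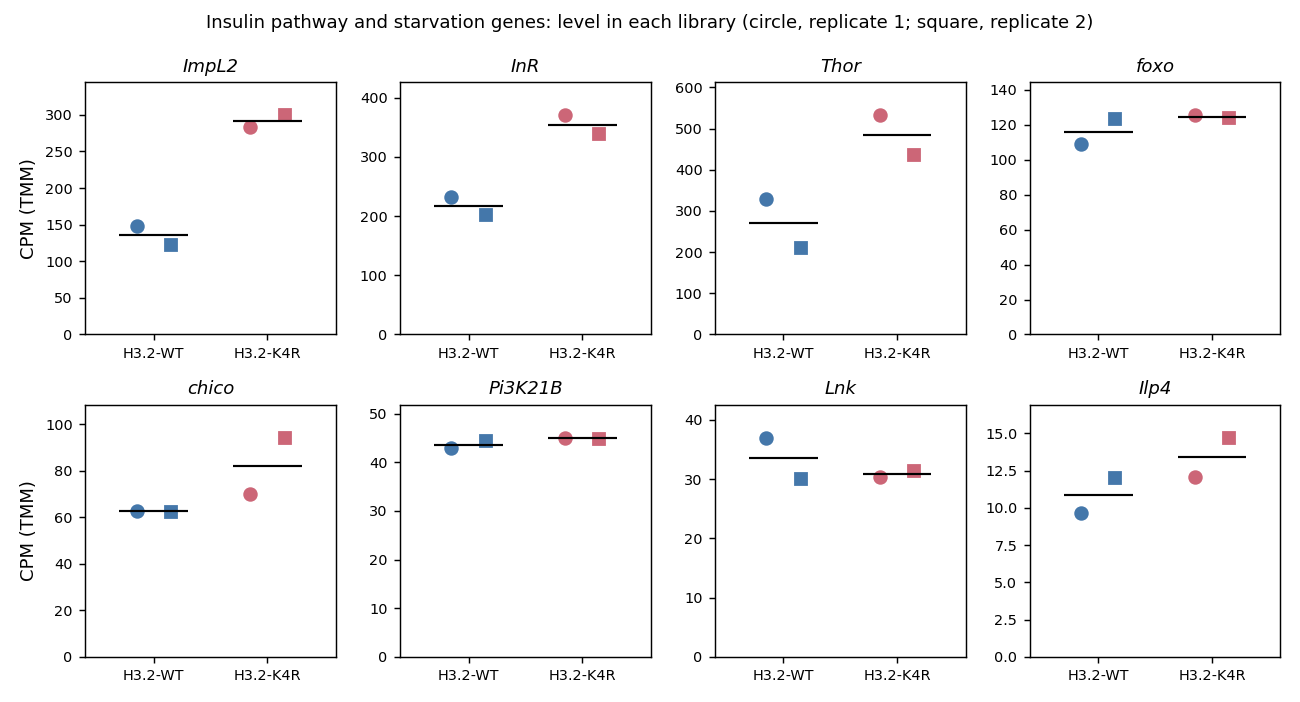
Level of each gene in CPM (vertical axes, each from 0) in the 4 libraries, with circles for replicate 1, squares for replicate 2 and a line at each group mean. ImpL2, InR and Thor show a clear gap between the groups, the points of foxo and Pi3K21B nearly touch, and those of Lnk overlap.

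ImpL2, a secreted protein with immunoglobulin domains that binds insulin-like peptides and keeps them from the receptor, rose about 2-fold in K4R. The gene lies on chromosome 3L from 4224006 to 4236147 on the minus strand (build dm6), with 2667 bases of exon. It had 148 and 123 CPM (counts scaled to TMM library size) in wild-type replicates 1 and 2, and 283 and 299 CPM in K4R replicates 1 and 2. Even the nearest libraries of the groups were 1.91-fold apart, while the libraries within each group differed by at most 1.21-fold. The log2 fold change was 1.11 ± 0.15 (SE, n = 2 per group; edgeR adjusted p = 0.030), with a 95% interval from 0.76 to 1.45. The call was lost without wild-type replicate 1 (1.26) and without wild-type replicate 2 (0.97), while leaving out either K4R library kept it. Calls over all tested genes also moved widely with 1 library left out, so these losses are not particular to ImpL2.

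InR, the receptor tyrosine kinase of the pathway and itself a FOXO target, had 233 and 201 CPM in the wild type and 370.3 and 339 CPM in K4R. The groups did not overlap, and the nearest libraries were 1.46-fold apart. Its log2 fold change of 0.71 ± 0.14 (SE, n = 2 per group) did not pass the edgeR threshold (adjusted p = 0.0931), with a 95% interval from 0.37 to 1.04. The adjusted p was 0.000169 by DESeq2 and 0.0413 by limma-voom. InR spans 3R from 21570248 to 21619321 on the minus strand and, with 11367 bases of exon, is the longest of the 8. Fold changes in these libraries ran with exon length, by 0.23 log2 units at the length of InR, and with that trend removed InR stood at 0.48 (adjusted p = 0.224).

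Thor encodes the fly 4E-BP, which binds the cap-binding protein eIF4E and holds back translation, and is the classical FOXO target of starved flies. It had 329.6 and 211 CPM in the wild type and 532 and 437 CPM in K4R. Both K4R libraries were higher, but the wild-type libraries differed by 1.56-fold from each other, more than the 1.33-fold gap between the nearest libraries of the groups. The log2 fold change was 0.84 ± 0.22 (SE, n = 2 per group). The adjusted p was 0.152 by edgeR, 0.00544 by DESeq2 and 0.0628 by limma-voom. Thor (2L, 3478434 to 3479612, plus strand) has 755 bases of exon, where the length trend was -0.28 log2 units. With the trend removed, Thor stood at 1.13 and passed (adjusted p = 0.0415). Without wild-type replicate 2, Thor stood at 0.56, and without wild-type replicate 1 at 1.21.

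The eIF4E gene eIF-4E, the partner of Thor, had a log2 fold change of 0.15 ± 0.16 (adjusted p = 0.692, edgeR). Per kilobase of exon, Thor stood at 2.17 and 1.56 times eIF-4E in the wild type and at 3.78 and 2.45 times in K4R. Both ratios were higher in K4R, and the gap between its 2 libraries was wider than the gap between the nearest libraries of the groups.

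The transcript of foxo itself, which encodes the transcription factor at the end of the pathway, was at nearly the same level in all libraries. It had 109 and 123 CPM in the wild type and 125 and 124 CPM in K4R. The nearest libraries of the groups differed by 1.01-fold. The log2 fold change was 0.10 ± 0.14 (SE, n = 2 per group; edgeR adjusted p = 0.773), with a 95% interval from -0.23 to 0.43, so a change of the size seen in ImpL2 lies outside it. FOXO acts mainly by moving between cytoplasm and nucleus, which RNA levels do not show. The gene lies on 3R from 14056945 to 14087978 on the plus strand.

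The genes of 3 adaptors or subunits between receptor and Akt follow, of which 0 passed. The insulin receptor substrate gene chico, on 2L from 10242512 to 10247078, had 62.6 and 62.5 CPM in the wild type and 70.1 and 94.3 CPM in K4R. Its wild-type libraries were almost equal and its K4R libraries far apart, and the log2 fold change was 0.39 ± 0.18 (SE, n = 2 per group; edgeR adjusted p = 0.320). Without K4R replicate 2 the value was 0.17, and without K4R replicate 1 it was 0.59 (adjusted p = 0.0596). A 380-base stretch of chico exon lies opposite exon sequence of CR44995, and since pairs were counted by strand these are kept apart.

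Pi3K21B encodes the regulatory subunit of phosphoinositide 3-kinase and lies on 2L from 297880 to 305233. It had 42.9 and 44.3 CPM in the wild type and 45.1 and 44.8 CPM in K4R. All 4 values fell within a narrow band, and its log2 fold change was 0.04 ± 0.15 (SE, n = 2 per group; edgeR adjusted p = 0.926; 95% interval -0.32 to 0.40). With the length trend removed the sign turned, to -0.05. Pi3K92E, the catalytic partner of Pi3K21B, had 95.1 and 102 CPM in the wild type and 126 and 169 CPM in K4R. The groups did not overlap, at a log2 fold change of 0.58 ± 0.18 (adjusted p = 0.185 by edgeR, 0.0345 by DESeq2 and 0.116 by limma-voom). The value of Pi3K92E was 0.36 without K4R replicate 2 and 0.78 without K4R replicate 1. Per kilobase of exon the catalytic gene stood at 2.26 and 2.34 times the regulatory gene in the wild type and at 2.85 and 3.85 times in K4R.

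Lnk, an SH2-domain adaptor that works beside chico in flies, was the only one of the 8 with a value below 0. It lies on 3R from 25888542 to 25893270. Levels were 37.0 and 30.0 CPM in the wild type and 30.3 and 31.3 CPM in K4R. Wild-type replicate 1 alone stood high and the groups overlapped, with a log2 fold change of -0.12 ± 0.18 (SE, n = 2 per group; edgeR adjusted p = 0.788). The sign of Lnk turned without wild-type replicate 1, to 0.05.

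Ilp4, an insulin-like peptide made mainly in the embryonic midgut and mesoderm, was the least counted of the 8, with 330 and 558 counts in the wild type and 516 and 532 in K4R. In CPM these were 9.68 and 12.0 in the wild type and 12.1 and 14.7 in K4R. Wild-type replicate 2 and K4R replicate 1 were almost equal, and the log2 fold change was 0.30 ± 0.24 (SE, n = 2 per group; edgeR adjusted p = 0.567; 95% interval -0.24 to 0.85). With the length trend removed Ilp4, whose exons sum to 804 bases, stood at 0.58 (adjusted p = 0.339), and without K4R replicate 2 at 0.16. It lies on 3L from 9803399 to 9804263, in a row with Ilp1, Ilp2, Ilp3 and Ilp5, whose exons all fall between 9798434 and 9823897 of that chromosome.

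**Figure D2:**
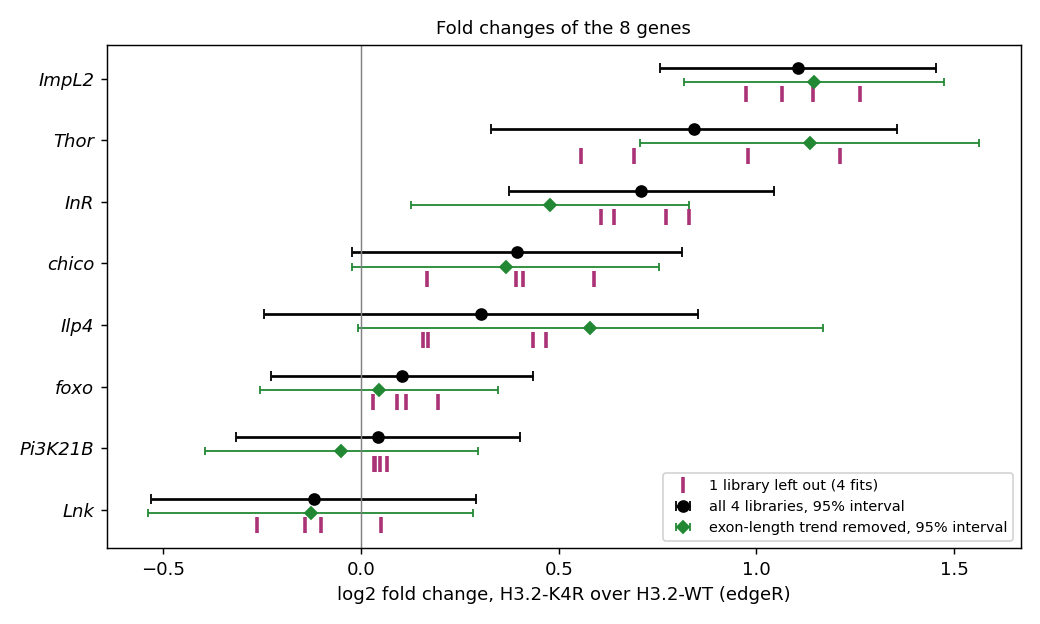
Log2 fold changes of K4R over the wild type (horizontal axis) for the 8 genes. Black circles with 95% intervals are edgeR fits of all 4 libraries, green diamonds with 95% intervals are fits with the exon-length trend removed, and purple ticks are the 4 fits with 1 library left out. The interval of ImpL2 lies farthest from 0, removal of the trend moves Thor up to 1.13 and InR down to 0.48, and the interval of foxo spans 0.

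Compared per kilobase of exon (RPKM, TMM scaled), Thor was by far the most abundant of the 8 transcripts, at 358 ± 111 RPKM in the wild type and 642 ± 89.6 in K4R (SD, n = 2 each). ImpL2 came next in both groups, at 50.8 ± 6.78 and 109 ± 4.41 RPKM. Both stood apart from the gene after them by more than the sum of the 2 SDs. In the wild type foxo followed at 28.2 ± 2.45 RPKM, ahead of InR at 19.1 ± 1.94 and chico at 17.5 ± 0.0241. In K4R InR, at 31.2 ± 1.95 RPKM, and foxo, at 30.3 ± 0.287, did not differ beyond their spread.

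Lower in the order, InR and chico in the wild type, and chico (23.0 ± 4.78 RPKM) and Ilp4 (16.7 ± 2.298) in K4R, were not apart beyond their spread. Lnk and Pi3K21B came last in both groups, at 10.05 ± 1.48 and 8.84 ± 0.202 RPKM in the wild type and 9.24 ± 0.209 and 9.10 ± 0.0317 in K4R, and did not differ beyond their spread in either. Nor did Ilp4, at 13.5 ± 2.06 RPKM, and Lnk in the wild type.

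**Figure D3:**
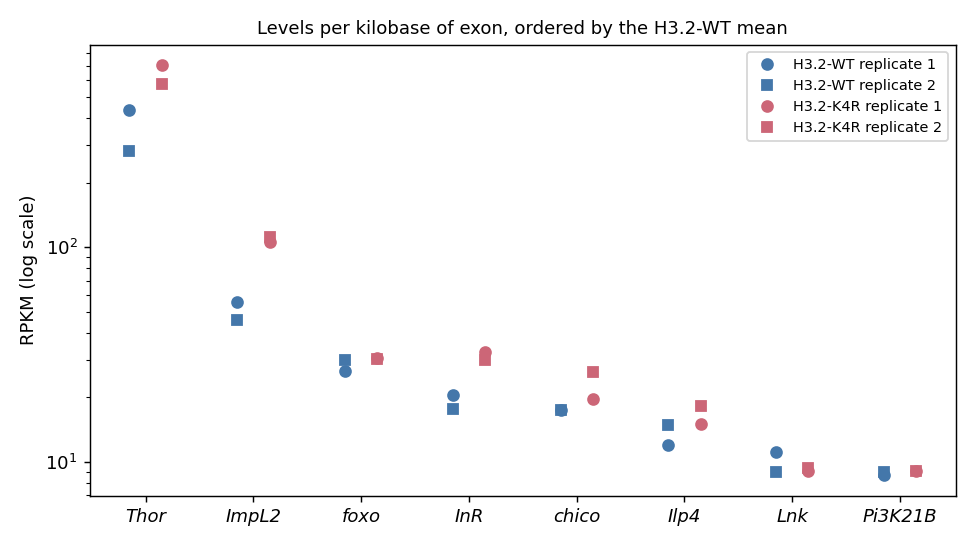
Levels of the 8 genes in RPKM (vertical axis, log scale) in each library, ordered by the wild-type mean, with blue for the wild type and red for K4R. Thor lies above all others in every library, ImpL2 is second in every library, and InR moves from below foxo in the wild type to the level of foxo in K4R.

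Set against the most abundant ligand transcripts, that of the antagonist ImpL2 was higher per kilobase in every library. The RPKM of ImpL2 stood at 4.61 and 3.07 times that of Ilp4 in the wild type and at 7.04 and 6.13 times in K4R. Against Ilp6, a peptide of fat body and glia, the ratios were 2.79 and 2.54 in the wild type and 5.51 and 4.46 in K4R, and the groups did not overlap in either ratio. Sdr, a secreted decoy of the insulin receptor and thus another extracellular antagonist, had a log2 fold change of -0.01 ± 0.24 (adjusted p = 0.988, edgeR), and its groups overlapped.

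Of the other insulin-like peptides, Ilp6 made up most of the summed peptide transcripts, with 67.3% to 77.6% of the CPM of Ilp1 to Ilp8 in the 4 libraries, and Ilp4 15.6% to 20.03%. Ilp6 had 48.1 and 43.6 CPM in the wild type and 46.5 and 60.7 CPM in K4R (0.22 ± 0.18 on the log2 scale, adjusted p = 0.591 by edgeR). Ilp8, a relaxin-like peptide released by damaged or slowly growing discs in larvae, had 51 and 101 counts in the wild type and 289 and 292 in K4R. Its groups were far apart, at a log2 fold change of 2.01 ± 0.38. The adjusted p of Ilp8 was 0.081 by edgeR, 0.000638 by DESeq2, 0.0595 by limma-voom and 0.0523 by edgeR with the exon-length trend removed. The share of Ilp8 in the summed CPM went from 2.42% and 3.63% to 9.83% and 9.36%.

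The peptides of the brain's insulin-producing cells were scarce. Ilp2 had 15 to 60 counts per library, and Ilp5 had 0 in all 4. Ilp3 had 0 and 0 counts in the wild type and 21 and 17 in K4R, and did not pass (adjusted p = 0.221, edgeR). Its mean CPM in K4R was 5.47 times that of a wild type set at the floor of 3 counts per library. That ratio takes no account of the spread between libraries and is not a lower bound. By edgeR, the 95% interval of the log2 fold change of Ilp3 ran from 1.51 to 13.03. Ilp1 had 36 and 16 counts in the wild type and 27 and 0 in K4R, and Ilp7 had 22 and 31 against 47 and 71.

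Beyond the 8 genes, 36 other genes of the insulin and TOR pathway were found in the table and 35 were tested. By edgeR 0 rose and 0 fell, beside 0.415% and 0.173% of all tested genes. An unadjusted p under 0.05 was reached by 6 above and 0 below the wild type, beside 7.68% and 9.2% of all tested genes. DESeq2 called 3 higher, beside 3.58%, and limma-voom 0. Fold changes were above 0 in 25 and below 0 in 10, beside 48.1% above 0 among all tested genes. The median of the list was 0.08, beside -0.02 over all tested genes. With the length trend removed it was 0.027, beside 0.027 over all tested genes, so the list then did not stand above them. The 4 with the lowest p were Ilp8, sgg, Pi3K92E and Ilp3. The gene sgg, for the kinase GSK3 that Akt inhibits, had 13511 and 19602 counts in the wild type and 23144 and 21196 in K4R (log2 fold change 0.46 ± 0.14, adjusted p = 0.179 by edgeR; 0.0122 by DESeq2). It has 12445 bases of exon, and with the length trend removed sgg stood at 0.23 (adjusted p = 0.421). Among core kinases and brakes, chosen for their place in the pathway after values had been seen, Akt1 stood at 0.42 ± 0.17, Tor at 0.17 ± 0.18, the ribosomal S6 kinase gene S6k at -0.04 ± 0.13 and the TOR inhibitor gene Tsc1 at -0.25 ± 0.17 log2 units, each short of the threshold (adjusted p from 0.272 to 0.924, edgeR).

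Among 42 tested genes of the starvation and FOXO response, 43 being in the table, 1 rose and 0 fell by edgeR, beside 0.415% and 0.173% of all tested genes. The gene that rose was CG3523, now named FASN1. It encodes fatty acid synthase, which builds fatty acids for fat storage, a process known to go with feeding rather than with starvation. CG3523 had 278 and 226 CPM in the wild type and 503 and 478 CPM in K4R. The groups were far apart, at a log2 fold change of 0.96 ± 0.15 (SE, n = 2 per group; edgeR adjusted p = 0.0461). The call was lost without wild-type replicate 1 (1.13), without wild-type replicate 2 (0.82) and with the length trend removed (0.76, edgeR adjusted p = 0.0961). Calls over all tested genes also moved widely with 1 library left out.

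Over the same list an unadjusted p under 0.05 was reached by 6 above and 1 below the wild type, beside 7.68% and 9.2% of all tested genes. DESeq2 called 5 higher, beside 3.58%, and limma-voom 2, beside 0.874%. Fold changes were above 0 in 30 and below 0 in 12, beside 48.1% above 0 among all tested genes. The median was 0.13, and it was 0.02 without K4R replicate 1 and 0.21 without wild-type replicate 1. With the length trend removed the median was 0.10, beside 0.03 over all tested genes. The list holds genes linked to feeding, such as CG3523, beside genes linked to starvation. Its counts and median therefore do not measure a starvation response. The fat storage lipase gene bmm (brummer) had 2796 and 3342 counts in the wild type and 5524 and 5096 in K4R. That is a log2 fold change of 0.81 ± 0.15 (edgeR adjusted p = 0.076; 0.0278 by limma-voom), and with the length trend removed bmm passed at 0.87 (0.0408). Sesn, the sestrin gene that restrains TOR under stress, had 0.67 ± 0.15 (adjusted p = 0.106 by edgeR, 0.000803 by DESeq2 and 0.0513 by limma-voom). The leptin-like cytokine gene upd2 had 25 and 79 counts in the wild type and 235 and 144 in K4R (1.95 ± 0.55). The adjusted p of upd2 was 0.169 by edgeR, 0.0308 by DESeq2 and 0.140 by limma-voom. The value of upd2 was 1.49 without wild-type replicate 1 and 2.69 without wild-type replicate 2.

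**Figure D4:**
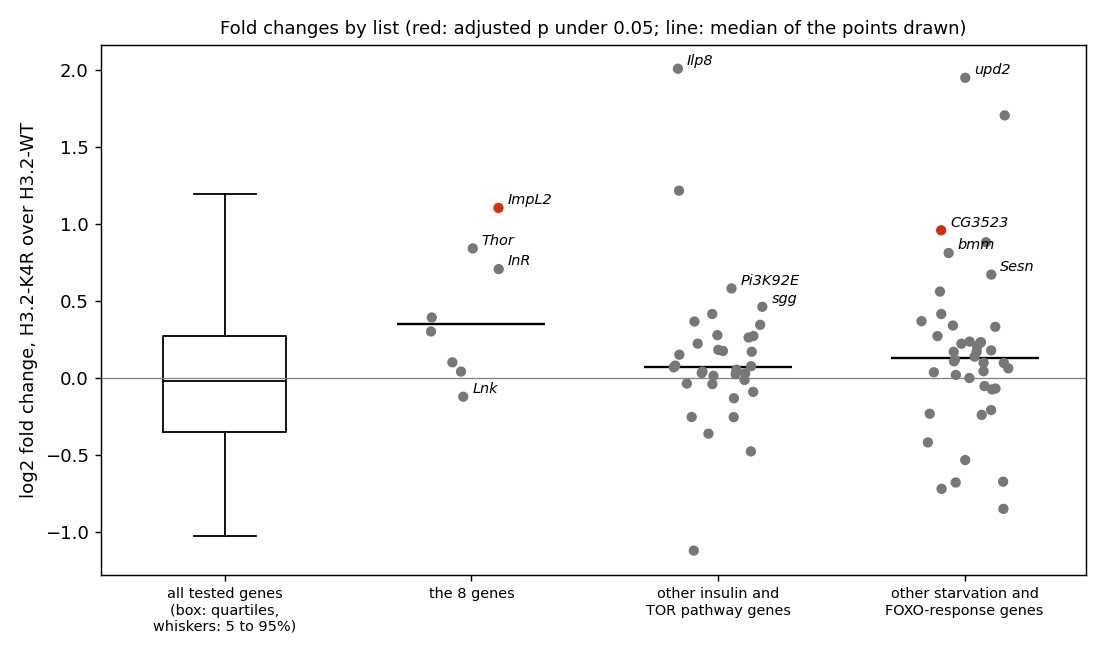
Log2 fold changes (vertical axis) of all tested genes (box with quartiles, whiskers from 5% to 95%), the 8 genes, and the 2 other lists, 1 point per tested gene, with Ilp3 left off because the wild type had 0 counts. ImpL2 and CG3523 are in red, past the adjusted threshold. The medians of the other lists lie close to 0, at 0.08 over all 35 tested pathway genes and 0.13 over the starvation genes. The first of these counts Ilp3, which the line drawn leaves out.

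The genes whose levels ran most like those of ImpL2 were sought among 3319 named genes at a mean log2 CPM of 4 or more, by the distance between centred log2 CPM over the 4 libraries. The nearest 5 were Cyp6a20 (distance 0.051), Xrp1 (0.083), Slc45-1 (0.202), Cyp4p1 (0.207) and Pdcd4 (0.217). Xrp1, a transcription factor gene of the response to DNA damage and to ribosomal protein loss, had 839 and 732 CPM in the wild type and 1709.8 and 1705 CPM in K4R, a log2 fold change of 1.12 ± 0.15 (adjusted p = 0.0291, edgeR). The cytochrome P450 gene Cyp6a20 had 23.9 and 20.7 CPM in the wild type against 46.2 and 48.9 in K4R (1.09 ± 0.17, adjusted p = 0.0435). Over the same measure InR lay at 0.429 and Thor at 0.440 from ImpL2, and Lnk, at 1.22, was the farthest of the 8. Over 4 libraries in 2 groups, a small distance says little beyond a like difference between the groups.

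**Figure D5:**
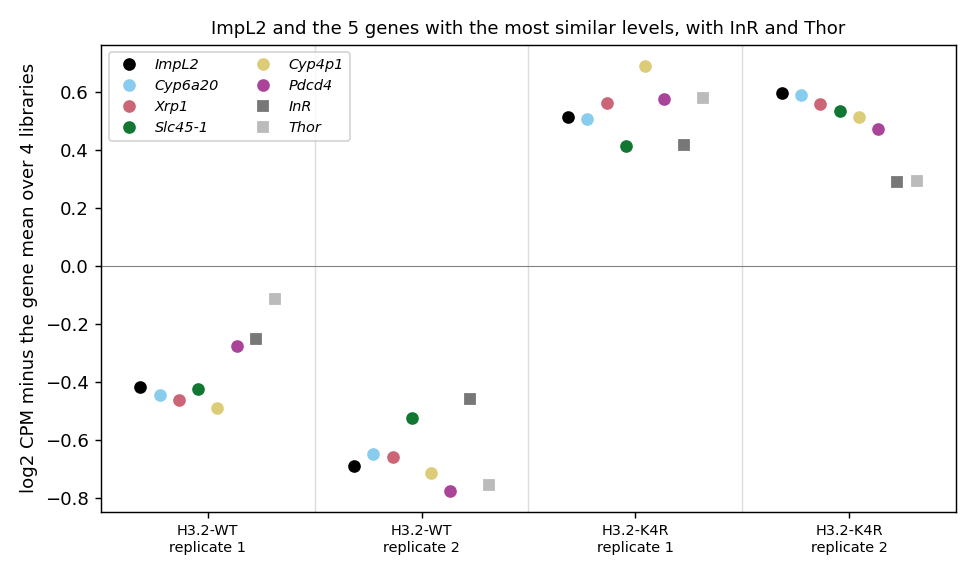
Log2 CPM minus the mean of the gene over the 4 libraries (vertical axis) for ImpL2, the 5 genes nearest to it (circles), and InR and Thor (squares), by library. In all of them both K4R libraries lie above both wild-type libraries, and wild-type replicate 2 is the lowest.

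Markers of the tissues that could carry these transcripts were compared by their summed CPM. Fat body markers (5 genes) ranged from 6716 to 7909 in the wild type and from 7549 to 7849 in K4R, while the larval fat body genes Lsp2 and Fbp1 among them were near 0 at this age. That sum holds opposite differences in its most abundant genes. The lipophorin gene Rfabg had 3200 and 3717 CPM in the wild type and 4089 and 5186 in K4R, and the collagen gene Cg25C had 3401 and 4099 against 3294 and 2559. Midgut markers (4 genes) ranged from 231 to 241 and from 190.3 to 223, hemocyte markers from 269.8 to 315 and from 313 to 314, and late epidermal markers from 893 to 921 and from 1024 to 1103. The hemocyte sum also held opposite differences, with 3 of its 4 genes above 0 on the log2 scale. Hml had 35.7 and 27.3 CPM in the wild type and 60.8 and 42.0 in K4R. Pxn, whose groups overlapped, had 92.3 and 130 against 95.7 and 68.5. Muscle markers were lower, from 21168 to 22511 in the wild type and from 15993 to 17979.9 in K4R, and so were glial markers, from 390.3 to 409 and from 325 to 349. The sum of neuronal markers was higher, from 2013 to 2191 in the wild type and from 2274 to 2378 in K4R. All 5 genes stood above 0, by 0.07 to 0.29 log2 units, but elav and brp overlapped between the groups. Akh, the hormone gene of the corpora cardiaca, stood at 6.88 to 8.72 CPM in the wild type and 4.73 to 5.04 in K4R. The tracheal sum (3503 to 3593 and 3396 to 3702 CPM) overlapped between groups. Within it btl was lower, with 8.57 and 12.2 CPM in the wild type and 7.25 and 5.81 in K4R. Its log2 fold change was -0.67 ± 0.29 (edgeR adjusted p = 0.302). The more abundant verm overlapped, and serp stood at 0.06. The yolk and early maternal sum (2.37 to 12.0 and 4.01 to 7.81 CPM) also overlapped. There bcd had 264 and 24 counts in wild-type replicates 1 and 2, and 224 and 33 in K4R. The counts of osk (40 and 9 against 6 and 21) did not share that order. Markers of insulin-producing neurons were scarce (5.02 to 5.31 and 5.51 to 6.10 CPM). Of the marker genes tested, 0 passed the edgeR threshold, beside 0.588% of all tested genes in either direction. With so small a share over all genes, 0 among the markers says little. The part of cell makeup in the results was not tested. In whole embryos, fewer cells of a type and less RNA per cell cannot be told apart.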

How the data were processed

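Total RNA of whole embryos was sequenced after depletion of ribosomal RNA, 2 libraries for each of 2 groups. The deposited table holds raw counts of read pairs per gene, made with featureCounts 2.0.6 on 1 strand over exons of a dm6 annotation, with multi-mapping pairs and pairs over several genes left out, per the file headers. STAR 2.7.7a, SAMtools 1.9 and Subread 2.0.6 are named in the submitters' processing notes. Wild-type columns (HWT) were taken as H3.2-WT. The table's Length column (the authors' summed exon length in bases) gave RPKM.

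Genes were kept by filterByExpr (minimum count 10, total 15), TMM normalised and tested with edgeR 4.0.16 (quasi-likelihood, R 4.3.3, Benjamini-Hochberg threshold 0.05), with DESeq2 1.42.0, limma 3.58.1 and 8 further settings as alternatives. An exact two-sided permutation test of 2 against 2 libraries cannot go below 0.333 and was not used. Fits were tested on simulated data. The exon-length trend was a lowess curve per library. Replicates differed by more than sampling noise (chi-square per degree of freedom 56.1 and 96.5).

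The 8 genes and the lists were chosen with earlier results of these data known. Named beside the 8 were list genes past the threshold or among the 4 lowest p, the Ilp genes and the 5 genes most like ImpL2. Also named, chosen after their values were seen, were eIF-4E, Sdr, Akt1, Tor, S6k and Tsc1. All 43 starvation symbols matched, 8 by RefSeq synonym. FASN1 (CG3523) and mondo (Mio) share synonyms with other genes and were matched by locus tag or by leaving out another gene's current symbol, a step added after results were seen. Promoter and protein sequences were not analysed here.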

Additional observations from a re-analysis of the deposited data

How the results depend on the processing

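In 10 alternatives, ImpL2, InR, Thor, foxo, chico and Ilp4 stayed above 0, with log2 fold changes from 0.97 to 1.26 for ImpL2, 0.48 to 0.83 for InR and 0.56 to 1.21 for Thor. Reversals were Pi3K21B with the exon-length trend removed (-0.0497) and Lnk, which ran from -0.264 to 0.0505 with 1 library left out and turned without H3.2-WT replicate 1. Counts of calls moved far more than fold changes, and the cause was not tested.

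Of the 8 genes, 3 were called higher with no filter, by DESeq2 and under the replicate block (ImpL2, InR and Thor in each), 2 by limma-voom and with the exon-length trend removed, and 0 to 2 with 1 library left out. Other pathway genes called higher numbered 2 with no filter, 3 by DESeq2, 3 under the replicate block and 0 to 2 with 1 library left out. Starvation genes called higher numbered 4 with no filter, 5 by DESeq2, 2 by limma-voom, 4 under the replicate block and 0 to 3 with 1 library left out, and those called lower 1 under the replicate block and 0 to 1 with 1 library left out. Over all genes, calls went from 48 higher and 20 lower to 452 and 527 with no filter, 358 and 307 by DESeq2, 101 and 72 by limma-voom, 608 and 758 under the replicate block, 87 higher with the exon-length trend removed, and 1 to 251 higher and 0 to 587 lower with 1 library left out. Higher calls made up 3.26% of the genes tested with no filter, 3.58% by DESeq2 and 5.26% under the replicate block. They made up 0.874% by limma-voom and 0.752% with the exon-length trend removed. Lower calls made up 3.8% with no filter, 3.07% by DESeq2 and 6.56% under the replicate block. In the main fit the lists beside the 8 genes held 35 tested pathway genes and 42 tested starvation genes. The replicate numbers were not taken as pairs, since the labels give no shared batch, although same-numbered deviations correlated across genes (r = 0.347). With 2 libraries a group, small changes lie below what can be called.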
